A study of Mus musculus with 9 samples.

Results

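The libraries of SAHH-het+betaine mice were compared with those of SAHH-WT mice, gene by gene, in RNA from vascular tissue. Both groups were C57BL/6 mice aged 24 weeks on the ApoE-null background, which makes mice prone to atherosclerosis. SAHH-WT mice carried wild-type SAHH. SAHH-het+betaine mice were heterozygous for SAHH (SAHH+/-) and received betaine, so genotype and betaine differ together between the groups and cannot be told apart. The libraries were taken by their labels, 3 per group and 6 of the 9 in the series. The other 3 came from SAHH-het mice without betaine and entered this comparison only through the estimate of the spread. Some of their values are given beside it, with the genes that passed in SAHH-het minus SAHH-WT. The table lists 54532 genes, and the 15606 that averaged 0.5 or more FPKM (fragments scaled to exon length and library size) over the 6 libraries were tested. The dose and duration of betaine, and the vessel sampled, are not stated in the labels.

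SAHH, S-adenosylhomocysteine hydrolase, is encoded by Ahcy. Methyltransferases take methyl groups from S-adenosylmethionine and leave S-adenosylhomocysteine, which inhibits them, and SAHH splits that by-product into homocysteine and adenosine. Betaine, made from choline in mitochondria, gives a methyl group to homocysteine through the enzyme Bhmt and so restores methionine. This betaine route is best known from the liver, and most other tissues depend mainly on the folate route. The comparison asks how close betaine-treated heterozygotes come to mice with wild-type SAHH.

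Recovered fragments per library numbered 15837599, 17224165 and 16545086 in SAHH-WT 1 to 3, and 17311414, 15911784 and 16853409 in SAHH-het+betaine 1 to 3. The values of a gene are given below in that library order. Vascular markers were present in all 6 libraries. Myh11, the smooth muscle myosin heavy chain, measured 4.76, 7.17 and 13.2 FPKM in SAHH-WT and 24.2, 14.0 and 10.6 FPKM in SAHH-het+betaine. Pecam1, an endothelial adhesion molecule, lay between 21.3 and 60.4 FPKM, and Dcn, the fibroblast proteoglycan decorin, between 46.3 and 90.9 FPKM. Tagln, a smooth muscle actin-binding protein that is usually abundant in arteries, was at 0.567 to 1.05 FPKM. Genes of other tissues were abundant in some libraries: SAHH-WT 1 held the adrenal steroid enzyme Hsd3b1 at 4239 FPKM, against 0 to 0.0319 FPKM in the other 5. Over all tested genes, SAHH-WT 1 had a median absolute log2 difference of 0.45 to 0.51 from each other library, against 0.22 to 0.44 among the other 5. Where leaving out 1 library turned a list median or weakened it by a wide margin, the value without that library is given beside it. The labels do not say that libraries came from separate animals, so p-values measure only the spread between these libraries.

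Ahcy (ENSMUSG00000027597, chromosome 2, 155059310 to 155074497, GRCm38) was measured at 11.5, 7.17 and 7.98 FPKM in SAHH-WT and 7.66, 9.70 and 8.63 FPKM in SAHH-het+betaine. The groups overlapped, with means of 8.90 ± 2.32 and 8.66 ± 1.02 FPKM (SD, n = 3 each). The log2 difference was -0.02 (95% interval -0.49 to 0.46, limma adjusted p = 0.985), and a two-sided exact permutation test gave p = 1, where 0.1 is the smallest p that 3 against 3 allows. The interval does not include a loss of 1 on the log2 scale, the size that the loss of 1 of a pair of equal copies of the transcript would give. In the libraries labelled SAHH-het, Ahcy measured 3.48, 3.89 and 4.75 FPKM, below all 6 others. The heterozygous label was thus not visible in the Ahcy level of the libraries labelled SAHH-het+betaine, and SAHH-het+betaine below means the libraries so labelled. The labels do not state which exons the allele lacks. Without SAHH-WT 1 the log2 difference was 0.18, and without SAHH-het+betaine 1 it was 0.07. Rescaling the FPKM of each library to the same sum gave -0.41, and rescaling without mitochondrial genes gave -0.28. The interval above is for FPKM without rescaling. Apoe, absent as a protein in ApoE-null mice, measured 2.91, 4.35 and 6.11 FPKM in SAHH-WT and 5.51, 8.88 and 7.32 FPKM in SAHH-het+betaine. The 3 libraries labelled SAHH-het held 149, 223 and 225 FPKM of it, which goes against the ApoE-null label they share.

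No gene passed a Benjamini-Hochberg adjusted p of 0.05 in limma, 0% of those tested, and none passed 0.1. The smallest adjusted p was 0.613, so every gene named below had an adjusted p of at least 0.613 and is given as values that did not pass. By sign alone, 47.6% of the genes were higher in SAHH-het+betaine and 52.4% lower. An unadjusted p under 0.05 was reached by 1263 genes (8.09%), 800 of them higher in SAHH-het+betaine (5.13%) and 463 lower (2.97%), where 780.3 would be expected with no difference. The 3 libraries of each group did not overlap for 1445 genes with SAHH-het+betaine higher (9.26%) and 1194 with it lower (7.65%). With voom on the recovered fragments limma also called 0 genes. Without SAHH-WT 1 it called 2, the T cell receptor segments Trbj2-3 and Traj31, named after their values were seen. The unadjusted counts were 465 higher without SAHH-WT 1, 339 higher and 201 lower without SAHH-het+betaine 2, 351 higher and 193 lower without SAHH-het+betaine 3, and 742 lower without SAHH-WT 3. After rescaling to the same FPKM sum they were 202 higher and 829 lower, so the split of directions depended on the scaling.

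The intervals show how far the groups could differ without a call. The median half-width of the 95% interval was 0.67 on the log2 scale, with quartiles of 0.49 and 1.01. For 7924 genes (50.8%) the whole interval lay within 1 log2 unit of 0, and for 1138 genes (7.29%) within 0.5. For the remaining genes these libraries do not bound the difference to less than 1 log2 unit. The median log2 difference over all tested genes was -0.02, and it grew with the level, from -0.12 in the lowest of 4 equal bins of mean FPKM to 0.16 in the highest. The share at an unadjusted p under 0.05 and higher was 2.26% in the lowest bin and 9.71% in the highest. Across 4 equal bins of exon length the median lay between -0.05 and 0.00. Rescaling the FPKM of each library to the same sum moved the median of all genes to -0.39, and rescaling without the mitochondrial chromosome moved it to -0.26. FPKM sums were 279298, 391388 and 455599 in SAHH-WT and 385956, 522059 and 566309 in SAHH-het+betaine. List medians below therefore need to be read against the median of all genes under the same scaling, -0.39 after rescaling to the same sum.

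**Figure D1:**
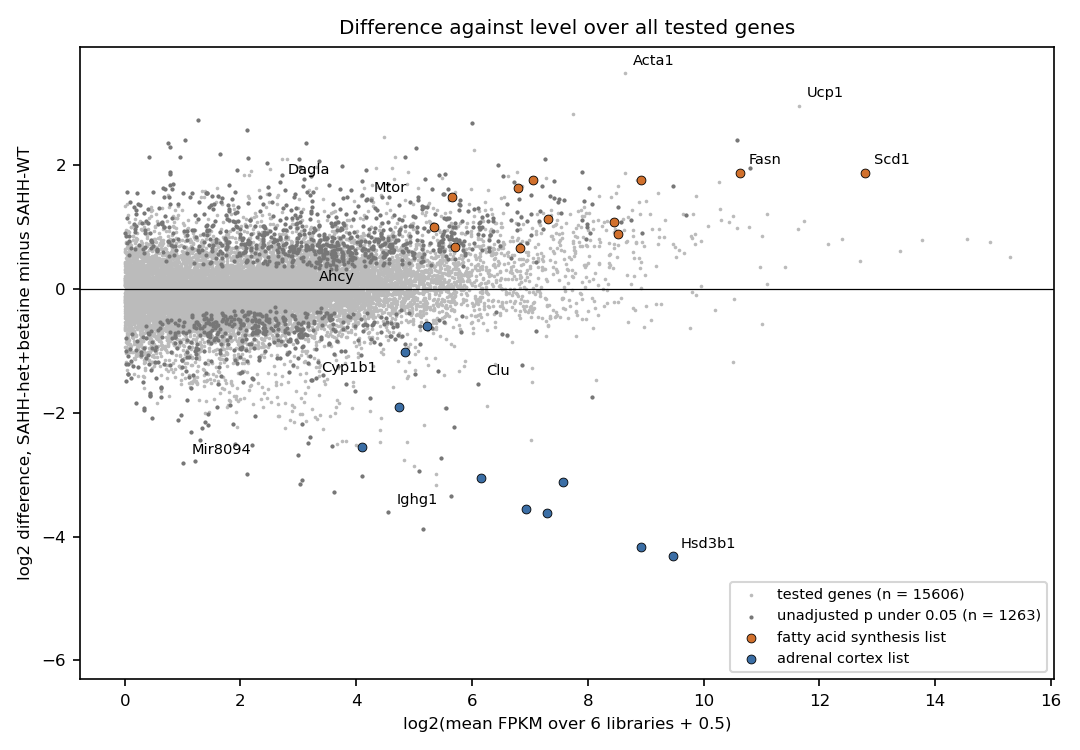
Each point is 1 of 15606 tested genes, with its level, log2(mean FPKM over 6 libraries + 0.5), on the x axis and its log2 difference, SAHH-het+betaine minus SAHH-WT, on the y axis. Dark points had an unadjusted p under 0.05, orange points are the fatty acid synthesis list, all 12 above 0, and blue points the adrenal cortex list, all 10 below 0.

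Symbol-bearing genes averaging 1 FPKM or more, whose groups did not overlap, were ranked by p. Among those higher in SAHH-het+betaine, the first 10 included lipid signalling and growth signalling genes. Dagla, which makes the endocannabinoid 2-arachidonoylglycerol, lies on chromosome 19 (10245265 to 10304877). It measured 1.42, 2.76 and 3.52 FPKM in SAHH-WT and 8.44, 8.96 and 10.2 FPKM in SAHH-het+betaine, a ratio of means of 3.58. Separate groups were a condition of this ranking, and the log2 difference was 1.72 (95% interval 1.01 to 2.44). Mtor, the growth kinase at the centre of nutrient sensing (chromosome 4, 148448611 to 148557683), measured 6.32, 9.41 and 12.6 FPKM in SAHH-WT and 23.0, 25.4 and 27.7 FPKM in SAHH-het+betaine. Its log2 difference was 1.42 (0.77 to 2.08), and the ratio of means was 2.68. Deptor, a binding partner that inhibits the mTOR kinase, was singled out after its values were seen. It measured 14.1, 14.3 and 15.1 FPKM in SAHH-WT and 42.5, 37.8 and 33.3 FPKM in SAHH-het+betaine, with a log2 difference of 1.35 (0.66 to 2.04).

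Prkce, the epsilon form of protein kinase C, measured 2.96, 5.16 and 5.31 FPKM in SAHH-WT and 12.5, 10.2 and 8.26 FPKM in SAHH-het+betaine, a log2 difference of 1.14 (0.58 to 1.69). Dyrk1b, a kinase of the dual-specificity DYRK family, measured 9.21, 8.58 and 7.49 FPKM against 14.9, 19.5 and 17.2 FPKM, a log2 difference of 0.99. For both kinases the groups were separate by the rule that chose them. Acbd4, an acyl-CoA binding domain protein, measured 22.3, 22.8 and 26.3 FPKM against 40.1, 38.4 and 45.8 FPKM (0.79), and D5Ertd579e 3.34, 4.17 and 4.64 FPKM against 8.21, 8.26 and 8.11 FPKM (0.95). Fam57b, a ceramide synthesis gene, measured 3.29, 4.22 and 5.08 FPKM against 10.4, 7.89 and 12.4 FPKM (1.19). It overlaps the abundant glycolytic gene Aldoa on the opposite strand, and without strand in the counting, which the labels do not state, their reads cannot be told apart. The same holds for Mtor and Angptl7. mt-Atp8, a subunit of the mitochondrial ATP synthase, measured 0.962, 3.28 and 3.40 FPKM against 18.3, 12.4 and 11.2 FPKM (2.35), from 4, 12 and 11 fragments against 63, 33 and 30. It shares 43 bases with mt-Atp6 on the same strand, so its count is uncertain.

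Lower in SAHH-het+betaine were a cytochrome P450, a secreted chaperone and a senescence marker. Cyp1b1, which oxidises steroids and fatty acids and is a target of the aryl hydrocarbon receptor, lies on chromosome 17 (79701537 to 79715061). It measured 18.5, 10.8 and 11.1 FPKM in SAHH-WT and 5.35, 4.19 and 3.74 FPKM in SAHH-het+betaine, a log2 difference of -1.47 (-2.17 to -0.78). Clu, the extracellular chaperone clusterin (chromosome 14, 65968483 to 65981547), measured 122, 83.1 and 95.3 FPKM against 52.1, 39.5 and 18.7 FPKM, a log2 difference of -1.53 (-2.40 to -0.67). Both genes were chosen from those whose groups did not overlap. Cdkn2a, which encodes the cell cycle inhibitors p16 and p19, measured 2.89, 1.43 and 1.18 FPKM against 0.606, 0.0656 and 0.130 FPKM (-1.60), from 69, 30 and 22 fragments against 12, 1 and 2. Slc10a6, a transporter of sulphated steroids, measured 2.61, 5.38 and 3.71 FPKM against 1.14, 1.12 and 1.58 FPKM, a log2 difference of -1.27.

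Other genes of this rank had smaller log2 differences. Rbbp8, a DNA end resection factor, measured 5.88, 4.70 and 4.19 FPKM in SAHH-WT and 2.60, 2.42 and 2.70 FPKM in SAHH-het+betaine (-0.81). Mmd2, a membrane receptor-like protein, measured 9.28, 7.22 and 5.36 FPKM against 3.27, 3.64 and 4.2 FPKM (-0.86). Tram1, which helps proteins enter the endoplasmic reticulum, measured 38.5, 31.1 and 28.6 FPKM against 21.1, 17.9 and 18.5 FPKM (-0.75). The rule that chose these 3 required groups that did not overlap.

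Small RNA genes reached the same rank on very few fragments. Mir8094 was listed at 2.93, 2.86 and 3.23 FPKM in SAHH-WT, from 7, 6 and 6 fragments, and at 0 in all 3 SAHH-het+betaine libraries. Its 117 bases lie inside Ddx39b, an RNA helicase gene, on the same strand. Ddx39b itself measured 35.3, 30.7 and 26.1 FPKM against 27.0, 22.2 and 25.7 FPKM, a log2 difference of -0.29. Mir6236 was listed at 0, 0.453 and 0 FPKM in SAHH-WT and at 1.44, 3.75 and 3.72 FPKM in SAHH-het+betaine, from at most 6 fragments. The T cell receptor segments Trbj2-1 and Trbj2-3 and the snoRNA gene Snord88c also rested on at most 7 fragments in a library. A long-RNA library does not measure mature miRNAs, so these values stand for the hairpin locus. The mature sequences from RefSeq (GRCm38.p6) are shown for the genes annotated as miRNA among the top genes, with the seed, bases 2 to 8, in capitals. Whether either locus gave a mature miRNA was not tested. The seeds of the pair differ.
mmu-miR-8094, chr17:35251314-35251334, plus strand: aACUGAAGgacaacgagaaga
mmu-miR-6236, chr9:110281353-110281371, plus strand: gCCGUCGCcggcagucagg

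**Figure D2:**
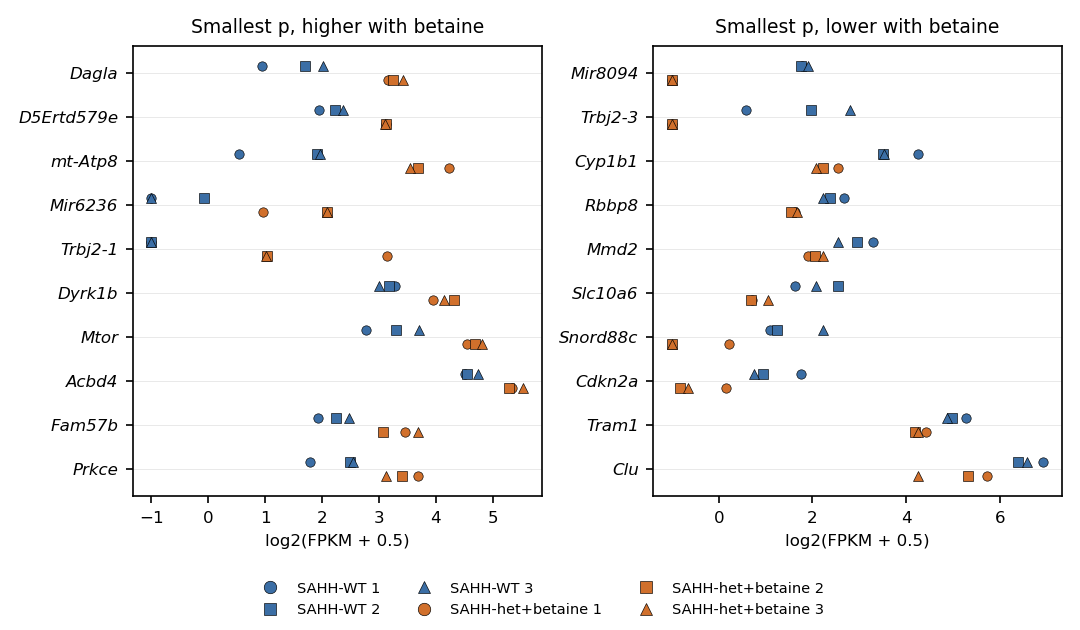
Each symbol is 1 library, with log2(FPKM + 0.5) on the x axis and 10 genes per panel, those with the smallest p among symbol-bearing genes averaging 1 FPKM or more whose groups did not overlap. Blue symbols are SAHH-WT and orange symbols SAHH-het+betaine, and a value of -1 is an FPKM of 0, as for Mir8094 in all 3 treated libraries.

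Fatty acid synthesis was the list with the highest share of members that stood apart. The pathway turns citrate into acetyl-CoA through Acly, into malonyl-CoA through Acaca and Acacb, and into palmitate through Fasn, and Scd1 and Elovl6 desaturate and lengthen the product. All 12 members were tested and all 12 were higher in SAHH-het+betaine, with a median log2 difference of 1.30, against -0.02 over all genes. For 9 of the 12 the groups did not overlap with SAHH-het+betaine higher, against 9.26% of all genes, and 4 had an unadjusted p under 0.05 (5.13% of all genes). Those 4 were Mlxipl, Acacb, Gpam and Acaca, the last 2 named after their values were seen.

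Fasn, fatty acid synthase (chromosome 11, 120805846 to 120824547), measured 361, 1167 and 697 FPKM in SAHH-WT and 2479.6, 2407 and 2417 FPKM in SAHH-het+betaine. The treated libraries lay close together, at 2434 ± 39.5 FPKM (SD, n = 3) against 742 ± 405, and the log2 difference was 1.87 (-0.44 to 4.18, limma adjusted p = 0.627). The fit takes its spread from all 9 libraries, and in SAHH-het Fasn ranged from 138 to 2522 FPKM. Scd1, stearoyl-CoA desaturase (chromosome 19, 44394455 to 44407879), measured 2064.5, 5311.5 and 2235 FPKM against 12338.5, 7366 and 13253.5 FPKM, a log2 difference of 1.87 (-0.56 to 4.31). Acacb, the acetyl-CoA carboxylase at the mitochondrial surface, measured 20.6, 75.7 and 84.6 FPKM against 148, 184 and 148 FPKM (1.63, 0.40 to 2.86). Its partner Acaca in the cytosol measured 38.5, 91.3 and 59.1 FPKM against 229, 202 and 178 FPKM (1.76, 0.14 to 3.38). Mlxipl, the transcription factor ChREBP, which responds to sugar, measured 16.2, 38.1 and 28.1 FPKM against 46.7, 50.8 and 59.4 FPKM (0.99, 0.31 to 1.67). Gpam, the first enzyme of triglyceride assembly, measured 14.4, 33.6 and 30.2 FPKM against 88.1, 93.7 and 39.9 FPKM (1.48, 0.18 to 2.77). In each of these 6 genes the lowest treated library exceeded the highest SAHH-WT library. Scd2, Me1 and Dgat2 were the 3 members whose groups overlapped.

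White and brown fat genes were also higher in SAHH-het+betaine. In bulk tissue, more cells of a type and more RNA per cell cannot be told apart. The summed FPKM of the 14 white adipocyte genes was 2446, 6351 and 7805 in SAHH-WT and 6712, 8696 and 6455 in SAHH-het+betaine, so SAHH-WT 1 was lowest and the other 5 libraries overlapped. Without SAHH-WT 1 the median log2 difference of white adipocyte genes dropped from 1.15 to 0.47, while that of fatty acid synthesis went from 1.30 to 1.08. With all libraries, 6 of the 14 white adipocyte genes did not overlap with SAHH-het+betaine higher, against 9.26% of all genes. An unadjusted p under 0.05 and higher values were found for 5 of the 14, against 5.13% of all genes. Without SAHH-WT 1, 11 of the 12 synthesis genes did not overlap with SAHH-het+betaine higher, against 14.98% of all genes. The count for white adipocyte genes was again 6 of 14, with 1 lower. Summed over the 12 synthesis genes, FPKM came to 3494, 7724 and 4084.5 in SAHH-WT and 17928, 11846 and 18138.5 in SAHH-het+betaine. The part of fat cells in the synthesis genes was not tested. Leaving out each library in turn gave synthesis medians of 1.08 to 1.48.

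Promoters of the synthesis genes are shown for members that stood apart together. RefSeq promoters (GRCm38.p6, 250 bases before to 50 after a start) were matched for 9 of the 12 members, 14 promoters in all. They were searched on both strands for the sterol response element of SREBP factors, TCACNCCAC, for the E-box CACGTG and for the CCAAT box, CCAAT. Of the 14 promoters, 1 held the sterol response element, 1 the E-box and 8 the CCAAT box. Among 32851 mouse promoters of this length, 1.24%, 7.15% and 37.4% held them. The Fasn promoter had 3 matches to the CCAAT box, a pair of which overlap, and the Mlxipl promoters held the sterol response element and the E-box matches. Capitals mark the matches, which describe letters and not bound sites.
Fasn promoter, chr11:120824498-120824797, minus strand: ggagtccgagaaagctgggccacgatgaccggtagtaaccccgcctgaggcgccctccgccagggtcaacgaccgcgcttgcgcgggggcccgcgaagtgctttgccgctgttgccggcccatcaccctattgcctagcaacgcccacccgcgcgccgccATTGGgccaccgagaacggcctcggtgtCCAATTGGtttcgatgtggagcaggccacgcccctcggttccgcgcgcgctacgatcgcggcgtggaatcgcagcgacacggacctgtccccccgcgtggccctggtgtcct
Acacb promoter, chr5:114165268-114165567, plus strand: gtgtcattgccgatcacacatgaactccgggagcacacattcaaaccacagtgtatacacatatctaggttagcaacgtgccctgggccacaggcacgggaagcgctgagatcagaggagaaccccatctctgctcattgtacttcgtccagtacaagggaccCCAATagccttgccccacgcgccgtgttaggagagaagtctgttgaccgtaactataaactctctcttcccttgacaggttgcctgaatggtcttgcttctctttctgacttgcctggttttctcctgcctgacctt
Mlxipl promoter, first start, chr5:135089640-135089939, plus strand: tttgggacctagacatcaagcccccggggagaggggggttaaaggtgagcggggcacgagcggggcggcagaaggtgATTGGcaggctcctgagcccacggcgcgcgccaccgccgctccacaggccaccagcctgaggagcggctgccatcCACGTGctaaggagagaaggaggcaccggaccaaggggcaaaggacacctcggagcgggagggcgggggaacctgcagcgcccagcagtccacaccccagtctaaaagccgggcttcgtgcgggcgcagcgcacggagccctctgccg
Mlxipl promoter, other start, chr5:135106641-135106940, plus strand: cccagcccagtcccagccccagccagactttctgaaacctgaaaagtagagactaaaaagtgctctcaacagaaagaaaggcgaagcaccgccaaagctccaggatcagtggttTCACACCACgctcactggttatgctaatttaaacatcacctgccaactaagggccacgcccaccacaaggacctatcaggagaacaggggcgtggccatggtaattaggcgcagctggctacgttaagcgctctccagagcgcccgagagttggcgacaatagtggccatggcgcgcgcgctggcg

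**Figure D3:**
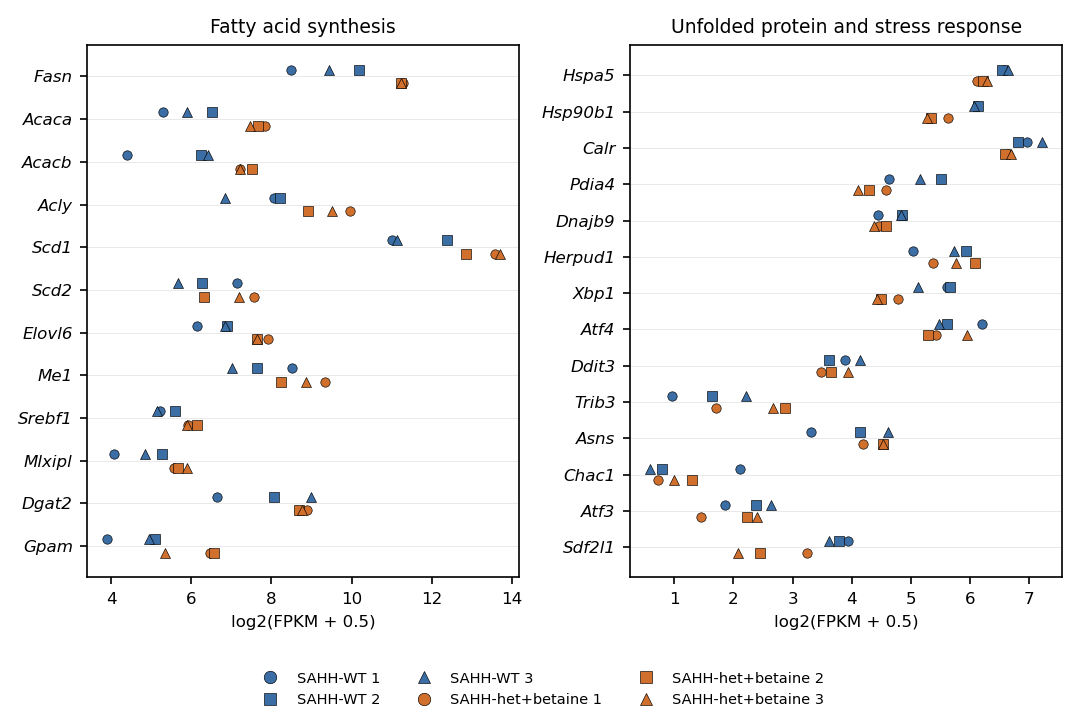
Each symbol is 1 library, with log2(FPKM + 0.5) on the x axis, for the 12 fatty acid synthesis genes (left) and the 14 unfolded protein and stress response genes (right). For 9 synthesis genes every orange SAHH-het+betaine symbol lies to the right of every blue SAHH-WT symbol, and for 6 stress genes every orange symbol lies to the left.

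Cholesterol synthesis genes, also targets of SREBP factors, had a median log2 difference of 0.63 over 13 tested members, 10 of them higher. It was 0.24 after rescaling to the same sum (-0.39 over all genes), and 0.38 without SAHH-het+betaine 3. Insig1, which holds SREBP in the endoplasmic reticulum when sterols are plentiful, measured 39.8, 84.5 and 81.3 FPKM in SAHH-WT and 194, 154 and 218 FPKM in SAHH-het+betaine (1.52, 0.34 to 2.69). Hmgcs1, which makes HMG-CoA, measured 21.5, 27.4 and 49.1 FPKM against 44.5, 49.2 and 63.3 FPKM (0.74, 0.07 to 1.41), and these groups overlapped. These 2 of 13 had an unadjusted p under 0.05 and higher values, against 5.13% of all genes. Idi1, Lss and Insig1 were the 3 without overlap, against 9.26% of all genes.

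Genes that burn fat were higher, with SAHH-WT 1 deciding much of the size. Fatty acid oxidation genes had a median of 1.23 over 12 members, 11 of them higher, and 0.49 without SAHH-WT 1. Ppara, the nuclear receptor that drives this programme, measured 1.28, 9.43 and 5.99 FPKM in SAHH-WT and 22.2, 29.8 and 9.63 FPKM in SAHH-het+betaine (1.98, 0.43 to 3.52). Hadha, a subunit of the mitochondrial trifunctional protein, measured 35.5, 115 and 176 FPKM against 181, 277 and 299 FPKM (1.45, 0.09 to 2.82). In both genes SAHH-WT 1 was lowest and no treated library reached down to the SAHH-WT range. Brown adipocyte genes had a median of 1.40 over 11 members, and 0.58 without SAHH-WT 1. Ucp1, the brown fat uncoupling protein, measured 18, 1267 and 5219 FPKM against 1996, 4929 and 5768 FPKM, a log2 difference of 2.95 with an interval of -1.05 to 6.96. Its groups overlapped, and the highest SAHH-WT value exceeded the middle treated value. Cpt1b, the muscle and brown fat carnitine transferase, measured 0.262, 0.529 and 0.730 FPKM against 1.46, 1.80 and 1.95 FPKM (1.17, 0.60 to 1.75).

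All 20 oxidative phosphorylation genes were higher, with a median of 0.90, and 0.44 without SAHH-WT 1. Only Ndufb8, a complex I subunit, had an unadjusted p under 0.05, 5% of the list, against 5.13% of all genes higher. It measured 19.9, 47.1 and 54.7 FPKM against 62.2, 105 and 122 FPKM (1.31, 0.14 to 2.48). The 13 protein genes of the mitochondrial chromosome had a median of 0.73, and 0.40 without SAHH-WT 1. After rescaling to the same sum it was 0.34, against -0.39 for all genes. Under quantile normalization it was 0.00, but that method gives equal ranks equal values in every library. It therefore cannot show a difference for genes that keep their rank. Mitochondrial genes took 21.8, 31.8 and 36.8% of the FPKM sum in SAHH-WT and 31.1, 36.7 and 39.4% in SAHH-het+betaine, so the groups overlapped.

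Among genes that handle betaine and choline, the enzyme that makes betaine differed most. Of 12 members 8 were tested, with a median log2 difference of 0.35 that became -0.00 when FPKM were rescaled to the same sum, as did the median of all genes to -0.39. Chdh, choline dehydrogenase (ENSMUSG00000015970, chromosome 14, 30009023 to 30040527), catalyses the first step from choline to betaine. It measured 1.61, 4.15 and 4.96 FPKM in SAHH-WT and 12.1, 15.0 and 10.4 FPKM in SAHH-het+betaine, a ratio of means of 3.50 and a log2 difference of 1.77 (0.68 to 2.86). Sardh, which demethylates sarcosine downstream of betaine, measured 2.13, 3.63 and 3.34 FPKM against 5.54, 7.57 and 4.79 FPKM (0.88, 0.17 to 1.59). Pcyt1a, which controls the phosphatidylcholine pathway, measured 5.59, 7.68 and 6.73 FPKM against 9.98, 14.2 and 9.43 FPKM (0.69, 0.09 to 1.30). These 3 had an unadjusted p under 0.05, 3 of 8, against 5.13% of all genes, and in each the groups did not overlap. After rescaling to the same sum 1 member was higher and 1 lower at that p, and 1 was higher after rescaling without mitochondrial genes. Without SAHH-WT 1, and likewise without SAHH-het+betaine 2, 1 member was higher at that p.

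Chka, choline kinase alpha, was lower, at 8.50, 1.97 and 1.57 FPKM in SAHH-WT and 1.35, 1.21 and 0.921 FPKM in SAHH-het+betaine (-1.12, -2.29 to 0.06), with SAHH-WT 1 far above the rest. Slc44a1 and Slc44a2, choline transporters, had log2 differences of 0.28 and -0.32. Aldh7a1, which completes betaine synthesis, had 0.10, and Pemt, which methylates phosphatidylethanolamine, 0.42. Dmgdh, the next enzyme after betaine is used, was listed at 0 in all 6 libraries, and the betaine transporter Slc6a12 stayed at 0.101 to 0.5 FPKM.

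Of 15 enzymes of the methionine cycle and transsulfuration 11 were tested, and none had an unadjusted p under 0.05. Their median log2 difference was -0.11, and -0.24 to -0.02 on leaving out each library. The groups did not overlap for 1 member higher and 1 lower, 9.09% each, against 9.26% and 7.65% of all genes. Bhmt, the enzyme that uses betaine, was at most 0.102 FPKM, and Mat1a, the liver S-adenosylmethionine synthetase, at most 0.0283 FPKM. Ahcyl1, an SAHH-like protein, measured 28.2, 72.8 and 76.0 FPKM in SAHH-WT and 85.8, 125 and 99.5 FPKM in SAHH-het+betaine (0.92, -0.17 to 2). Mat2a, the S-adenosylmethionine synthetase of other tissues, measured 48.0, 44.6 and 37.3 FPKM against 35.3, 35.6 and 36.1 FPKM (-0.27, -0.62 to 0.08). Ahcyl1 and Mat2a were the 2 members without overlap. Gnmt, a glycine methyltransferase that disposes of surplus methyl groups, had a log2 difference of -0.68 (-1.56 to 0.19). The other tested members were Ahcyl2 at 0.07, Mat2b at 0.21, Mtr at -0.11, Mtrr at -0.17, Cth at -0.43, Adk at 0.35 and Ada at -0.38 on the log2 scale.

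Folate enzymes had a median of -0.06 over 10 tested members, which was 0.05 without SAHH-WT 1. The groups did not overlap for 1 member higher and 2 lower, against 9.26% and 7.65% of all genes. Only Mthfd2, a mitochondrial folate enzyme of growing cells, had an unadjusted p under 0.05, 10% of the list, against 2.97% of all genes lower. It measured 2.97, 2.96 and 3.24 FPKM against 2.46, 1.19 and 1.90 FPKM (-0.63, -1.18 to -0.08). The DNA and histone methylation enzymes, which use S-adenosylmethionine or remove its methyl marks, had a median of -0.14 over 21 tested members, 17 of them lower and none with an unadjusted p under 0.05. The median was -0.02 without SAHH-WT 2. For 5 of the 21 the groups did not overlap with SAHH-het+betaine lower (7.65% of all genes), and for 1 with it higher (9.26%). Tet2, which oxidises 5-methylcytosine, measured 3.27, 2.24 and 1.68 FPKM against 1.57, 1.29 and 1.13 FPKM (-0.63, -1.30 to 0.03). The RNA m6A machinery had a median of -0.12 over 14 members, and -0.03 without SAHH-het+betaine 3. Of these 14, 3 did not overlap with SAHH-het+betaine lower and 1 with it higher, against 7.65% and 9.26% of all genes. Ythdc1, the nuclear reader of that mark, measured 4.87, 5.79 and 4.81 FPKM against 4.25, 3.11 and 3.05 FPKM (-0.52, -0.96 to -0.08). Alkbh5, a demethylase of the mark, measured 13.8, 13.7 and 12.5 FPKM against 16.2, 18.9 and 15.1 FPKM (0.31, -0.08 to 0.70).

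Chaperones of the endoplasmic reticulum were lower in SAHH-het+betaine. The unfolded protein and stress response list had a median of -0.25 over 14 members, 11 of them lower. For 6 the groups did not overlap with SAHH-het+betaine lower, against 7.65% of all genes, and 5 had an unadjusted p under 0.05 and lower values (2.97% of all genes). Hsp90b1, the chaperone GRP94, measured 69.4, 69.8 and 67.0 FPKM in SAHH-WT and 48.7, 40.0 and 38.4 FPKM in SAHH-het+betaine, a ratio of means of 0.617 and a log2 difference of -0.70 (-1.13 to -0.27). Hspa5, the chaperone BiP, measured 94.8, 93.2 and 99.7 FPKM against 69.4, 74.0 and 77.5 FPKM (-0.38, -0.72 to -0.04). Sdf2l1, a BiP cofactor, measured 14.7, 13.2 and 11.7 FPKM against 9.02, 4.99 and 3.72 FPKM (-1.18, -1.97 to -0.39). In all 3 chaperone genes the SAHH-WT libraries lay within a narrow range above every treated library. Xbp1, the transcription factor of the IRE1 branch, measured 48.5, 49.9 and 34.5 FPKM against 27.0, 22.1 and 21.1 FPKM (-0.90, -1.61 to -0.18), and Pdia4, a disulphide isomerase, 24.2, 45.2 and 35.1 FPKM against 23.5, 19.2 and 16.7 FPKM (-0.77, -1.40 to -0.14). Xbp1 and Pdia4 were named after their values were seen. Targets of the ATF4 branch included Asns at a log2 difference of 0.40 and Trib3 at 0.82, whose groups overlapped.

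The direction of the stress list did not turn in any alternative scaling, and its median was -0.40 to -0.19 on leaving out each library. Plasma cells are rich in these chaperones. The 12 B and plasma cell genes summed to 673, 7434 and 983 FPKM in SAHH-WT and 2593, 504 and 446 FPKM in SAHH-het+betaine, and the groups overlapped. The part of plasma cells in the chaperone values was not tested.

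Cytosolic ribosomal protein genes had a median of -0.28 over 18 members, 16 of them lower and none with an unadjusted p under 0.05. For 7 the groups did not overlap with SAHH-het+betaine lower, against 7.65% of all genes, and the median was -0.38 to -0.19 on leaving out each library. Rps6, a target of the mTOR pathway's S6 kinase as a protein, measured 261, 348 and 274 FPKM in SAHH-WT and 227, 207 and 187 FPKM in SAHH-het+betaine (-0.50, -1.12 to 0.13), and Rpl4 337, 369 and 286 FPKM against 265, 252 and 219 FPKM (-0.43). Senescence and p53 targets had a median of -0.41 over 14 members, 12 of them lower, and 5 did not overlap, against 7.65% of all genes. Gdf15, a secreted stress cytokine, measured 0.821, 0.782 and 1.87 FPKM against 0.383, 0.166 and 0.247 FPKM (-1.06, -1.90 to -0.23). Igfbp7, a secreted growth factor binding protein, measured 383, 239 and 227 FPKM against 172, 161 and 152 FPKM (-0.77, -1.60 to 0.07). Cdkn2a, described above, Gdf15 and Igfbp3 were the 3 with an unadjusted p under 0.05 and lower values, against 2.97% of all genes. Heat shock chaperones had a median of -0.17 over 10 members, and -0.35 to -0.10 on leaving out each library. Among them Hspa8 measured 289, 329 and 371 FPKM against 157, 229 and 264 FPKM (-0.63, -1.34 to 0.08).

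Clock genes differed in both directions within the list. Its median was 0.48 over 14 members, 0.26 without SAHH-WT 3 and 0.11 after rescaling to the same sum. The median of all genes was -0.39 after that rescaling. Per1, a repressor of the clock that also responds to glucocorticoids, measured 13.8, 7.65 and 5.75 FPKM in SAHH-WT and 4.22, 4.39 and 3.04 FPKM in SAHH-het+betaine (-1.05, -1.74 to -0.36). Tef, a clock output factor, measured 11.9, 12.0 and 13.4 FPKM against 21, 28.3 and 20.5 FPKM (0.86, 0.04 to 1.69). Neither pair of groups overlapped. Nr1d1, the repressor REV-ERB alpha, measured 52.3, 21.8 and 18.4 FPKM against 52.0, 67.6 and 43.6 FPKM (0.94, -0.10 to 1.98), with SAHH-WT 1 inside the treated range. The labels do not state the hour of collection.

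Contractile smooth muscle genes had a median of 0.65 over 13 members, 11 of them higher. It was 0.20 without SAHH-WT 2 and 0.26 after rescaling to the same sum (-0.39 over all genes). No member had an unadjusted p under 0.05 or groups that did not overlap. Acta2, smooth muscle actin, measured 53, 42.6 and 127 FPKM in SAHH-WT and 163, 105 and 65.1 FPKM in SAHH-het+betaine (0.65, -0.55 to 1.86). Endothelial genes had a median of 0.00 over 16 members, with no member's groups apart. Leaving out SAHH-WT 1 gave -0.29, and leaving out SAHH-WT 3 gave 0.23. Nos3, endothelial nitric oxide synthase, measured 3.47, 6.46 and 8.52 FPKM against 8.60, 8.40 and 10.5 FPKM (0.61, -0.13 to 1.36). Collagens and elastic fibre genes had a median of 0.23 over 15 members, which was -0.16 after rescaling to the same sum and -0.02 without SAHH-WT 1. Measured from the median of all genes it was 0.25, and 0.23 after rescaling to the same sum.

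Adventitial fibroblast genes had a median of 0.11 over 12 members, which was -0.28 after rescaling to the same sum and 0.40 without SAHH-WT 3. Measured from the median of all genes it was 0.13, and 0.11 after rescaling to the same sum. For 3 members the groups did not overlap with SAHH-het+betaine higher, against 9.26% of all genes. Clec3b, the plasminogen-binding protein tetranectin, measured 24.6, 30.1 and 40.1 FPKM in SAHH-WT and 52.1, 56.0 and 61.5 FPKM in SAHH-het+betaine (0.85, 0.36 to 1.35). Pi16, a marker of adventitial progenitor fibroblasts, measured 13.0, 10.5 and 14.6 FPKM against 15.0, 19.0 and 28.5 FPKM (0.66, 0.08 to 1.23). Gsn, the actin-severing protein gelsolin, was the third, at 282, 277 and 312 FPKM against 380, 355 and 400 FPKM (0.38, -0.24 to 1.00). Matrix proteases and their inhibitors had a median of -0.19 over 15 members, which was 0.36 without SAHH-WT 3. Among them Mmp14, a membrane-bound collagenase, measured 6.89, 5 and 6.15 FPKM against 4.07, 3.39 and 2.89 FPKM (-0.72, -1.31 to -0.14). Mmp19 ran the other way, at 6.97, 5.33 and 8.25 FPKM against 11.6, 10.9 and 10.9 FPKM (0.68, -0.06 to 1.42).

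Of the immune lists, neutrophil genes had the largest median difference, -2.24 over 10 members, all lower. An unadjusted p under 0.05 was reached by 6 of the 10, against 2.97% of all genes lower, and 2 did not overlap, against 7.65%. S100a9, a calcium-binding protein of neutrophils, measured 165, 107 and 7.13 FPKM in SAHH-WT and 1.36, 10.3 and 6.00 FPKM in SAHH-het+betaine (-3.34, -6.16 to -0.52). SAHH-WT 3 lay inside the treated range, so the difference rests on SAHH-WT 1 and 2. Leaving out each library in turn gave neutrophil medians of -3.51 to -1.54. MHC class II genes had a median of -0.47 over 7 members and T and NK cell genes -0.40 over 13, all lower, and no member had groups that stood apart. Both directions rested on single libraries: without SAHH-WT 1 the medians were -1.06 and -1.11, and without SAHH-WT 2 they were 0.03 and 0.20. T and NK cell genes were also at 0.17 without SAHH-het+betaine 3. B and plasma cell genes had -0.38 over 12, a median that went to -1.67 when SAHH-WT 1 was left out and to 0.57 when SAHH-WT 2 was.

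Macrophage genes had a median of -0.28 over 15 members, 13 of them lower, and -0.59 to -0.12 on leaving out each library. Cd68, a lysosomal macrophage marker, measured 15.6, 20.8 and 36.2 FPKM in SAHH-WT and 14.4, 9.66 and 13.1 FPKM in SAHH-het+betaine (-0.87, -1.95 to 0.20). Il1b, the inflammatory cytokine, measured 1.08, 2.54 and 1.49 FPKM against 0.745, 0.403 and 0.801 FPKM (-0.90, -2.17 to 0.36). Groups of both genes stood apart. Of the macrophage genes 2 of 15 did not overlap with SAHH-het+betaine lower, and of the inflammatory cytokine genes 1 of 11. The share over all genes was 7.65%. Interferon-stimulated genes had a median of -0.26 over 14 members, 12 lower and none with an unadjusted p under 0.05. For 4 the groups did not overlap with SAHH-het+betaine lower, against 7.65% of all genes, and without SAHH-WT 3 the median was -0.05. Oasl2, an antiviral gene, measured 6.12, 7.27 and 7.98 FPKM against 4.43, 4.62 and 3.87 FPKM (-0.66, -1.79 to 0.47). Spp1, the foam cell gene osteopontin, was singled out after its values were seen, because SAHH-WT 3 alone was high at 153 FPKM, against 2.5 to 17.3 FPKM in the other 5.

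Genes of neighbouring tissues were high in some libraries and far lower in others. The 10 adrenal cortex genes summed to 10829.6 FPKM in SAHH-WT 1 and to 29.6 to 43.3 FPKM in the other 5, and their median of -3.09 became -0.00 without that library. Chromaffin genes of the adrenal medulla summed to 2409 FPKM in SAHH-WT 1 and to 0.98 to 170 FPKM in the others, with a median of -0.75 that was 0.68 without SAHH-WT 1. Skeletal muscle genes summed to 2874, 17.5 and 7.50 FPKM in SAHH-WT and 5.49, 1086 and 1562 FPKM in SAHH-het+betaine, with a median of 1.5 that ranged from 0.20 to 3.94 on leaving out each library. Cardiac muscle genes summed to 33.7, 887 and 285 FPKM against 69.3, 1142 and 43.4 FPKM, and their median of -0.20 ranged from -2.12 to 0.90. The 5 genes with the largest positive and negative log2 differences were mostly of this kind. They were Acta1 of skeletal muscle at 3.48, Ucp1 at 2.95, Elovl3 of brown fat at 2.83, Trbj2-1 and Acot11, a brown fat thioesterase, at 2.67, and Hsd3b1 at -4.32, Cyp21a1 at -4.17, Glycam1 of lymph node venules at -3.88, Cyp11b1 at -3.62 and the antibody gene Ighg1 at -3.61. Without SAHH-WT 1 the log2 difference was 7.02 for Acta1, 0.58 for Ucp1, 1.18 for Elovl3, 1.44 for Acot11 and 0.03 for Hsd3b1, while Cyp21a1 and Cyp11b1 were listed at 0 in all 5 remaining libraries.

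Medians of the remaining lists moved with single libraries. Cell cycle genes had a median of -0.28 over 15 members, 14 of them lower, and -0.03 without SAHH-WT 2. Inflammatory cytokines had -0.33 over 11, and -0.15 without SAHH-WT 2. Immediate early genes had -0.21 over 12, which was 0.04 without SAHH-WT 1. Lymphatic endothelium had -0.70 over 5, and -0.09 without SAHH-WT 1. Lipoprotein and efflux genes had 0.15 over 12, antioxidant genes 0.15 over 17, mast cell genes 0.29 over 6 and Schwann cell genes 0.29 over 8. All were negative after rescaling to the same sum, where the median of all genes was -0.39. Measured from that median they were 0.15, 0.14, 0.32 and 0.33. Lipoprotein genes were at 0.07 without SAHH-WT 1 and Schwann cell genes at 0.11 without SAHH-het+betaine 1. Antioxidant genes were also at -0.01 without SAHH-het+betaine 3, and mast cell genes at -0.09 without SAHH-WT 2. Txnrd1, a thioredoxin reductase, measured 11.1, 9.21 and 11.4 FPKM in SAHH-WT and 12.7, 14.5 and 13.8 FPKM in SAHH-het+betaine (0.36, 0.03 to 0.70). Of hepatocyte and thymocyte genes only 3 of 8 and 1 of 7 were expressed enough to test.

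Mesothelial genes had a median of -0.40 over 8 members, all lower, and the groups did not overlap for 1 of 8, 12.5% against 7.65% of all genes. The direction rested on single libraries. Without SAHH-WT 1 the median was -1.16 and all 8 did not overlap, against 13.4% of all genes, and without SAHH-WT 3 the median was 0.08. Msln, mesothelin, measured 4.11, 15.4 and 30.1 FPKM in SAHH-WT and 6.86, 9.09 and 10.1 FPKM in SAHH-het+betaine, with SAHH-WT 1 lowest. The gene Wt1, the mesothelial and epicardial transcription factor, measured 1.56, 3.88 and 1.65 FPKM against 0.649, 0.744 and 0.493 FPKM (-1.26, -2.03 to -0.48). Aldh1a2, a retinoic acid synthesis gene that mesothelium also expresses, was singled out after its values were seen, at 17.1, 12.7 and 12.0 FPKM against 4.94, 4.92 and 4.45 FPKM (-1.43, -2.26 to -0.61). Pdpn, podoplanin of lymphatic endothelium and mesothelium, measured 6.26, 7.73 and 10.1 FPKM against 4.04, 5.24 and 4.71 FPKM (-0.71, -1.16 to -0.25).

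**Figure D4:**
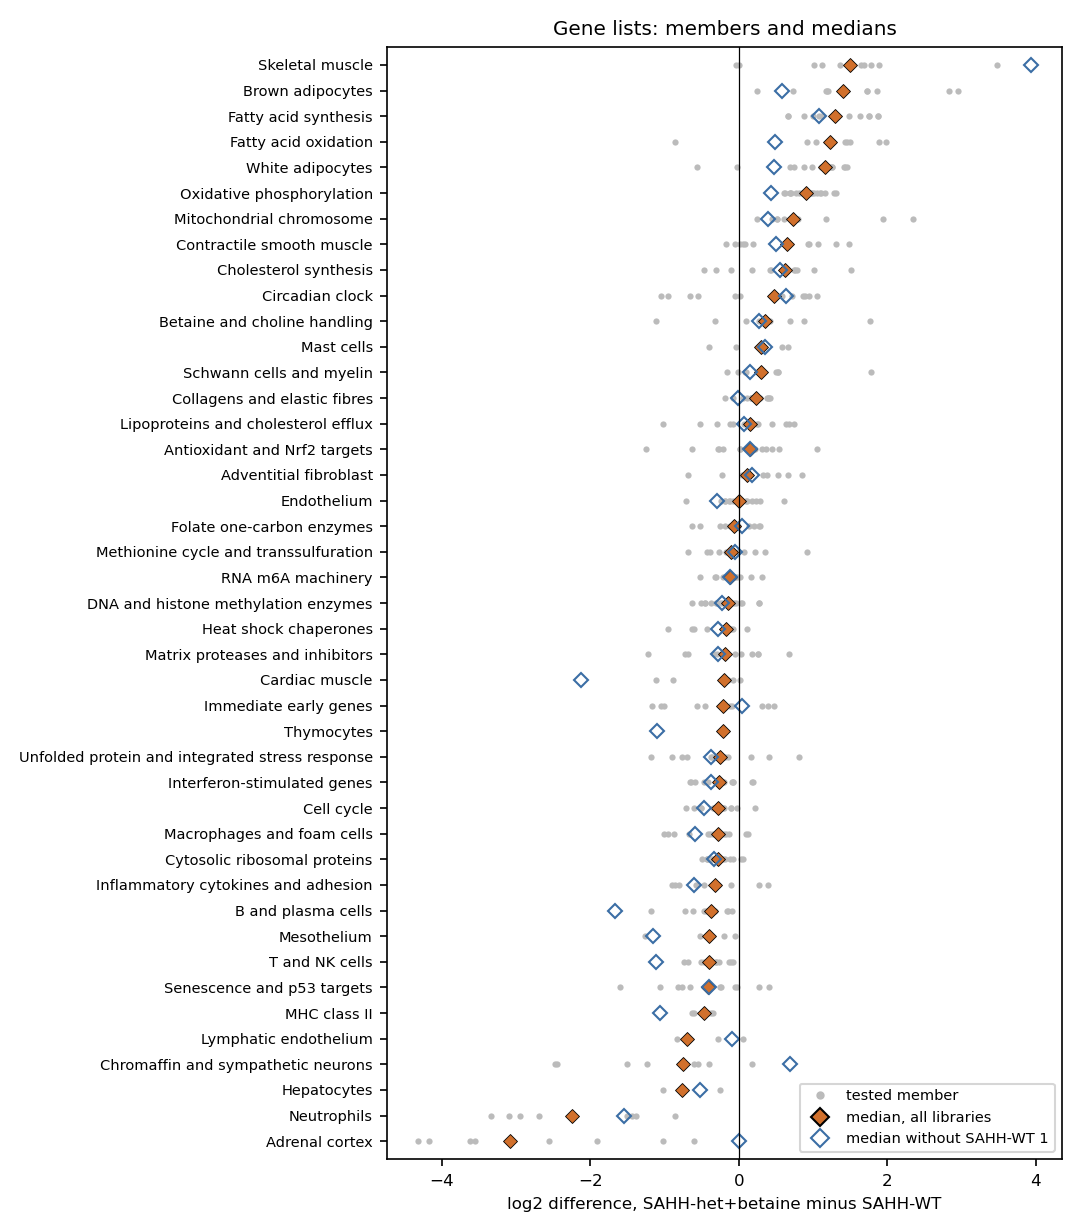
Grey points are tested members of each gene list, with the log2 difference, SAHH-het+betaine minus SAHH-WT, on the x axis. Orange diamonds are list medians with all libraries and open diamonds the medians without SAHH-WT 1: fatty acid synthesis stays at 1.08, while adrenal cortex goes from -3.09 to -0.00. Medians of the endothelial, collagen, adventitial, lipoprotein, antioxidant, mast cell, Schwann cell and betaine lists turn negative after rescaling to the same sum. The median of all genes is -0.39 in that rescaling, which is not drawn.

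**Figure D5:**
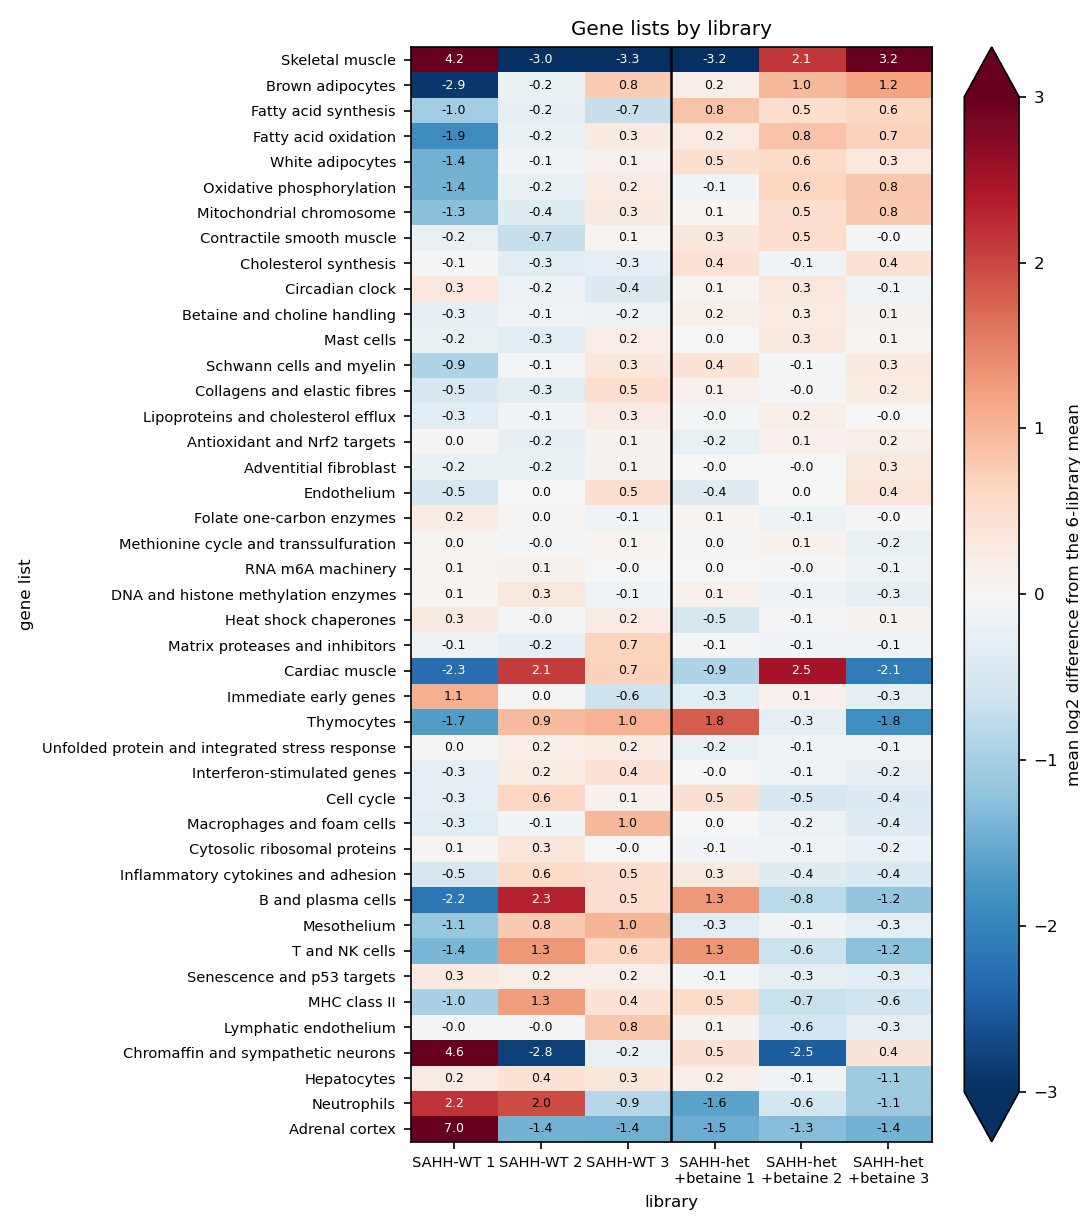
Rows are gene lists and columns the 6 libraries, and each cell gives the mean log2 difference of the list's tested members from their mean over the 6 libraries. SAHH-WT 1 stands out in the adrenal cortex and chromaffin rows and is lowest in the fat and mitochondrial rows, while fatty acid synthesis is below 0 in all 3 SAHH-WT libraries and above 0 in all 3 treated libraries.

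The 4 genes that passed in SAHH-het minus SAHH-WT, a comparison that shares the SAHH-WT libraries with this one, are given side by side. Map3k6, a stress-activated kinase, measured 4.48, 3.98 and 4.27 FPKM in SAHH-WT, while SAHH-het held 17.1, 12.0 and 14.3 FPKM and SAHH-het+betaine 5.88, 5.99 and 5.47 FPKM. The log2 difference from SAHH-WT was 1.65 for SAHH-het and 0.40 (0.04 to 0.77) for SAHH-het+betaine, whose libraries all lay above SAHH-WT. Apoe, given above, differed from SAHH-WT by 5.36 in SAHH-het and 0.67 (0.00 to 1.34) in SAHH-het+betaine. Gstt2, a glutathione transferase, differed from SAHH-WT by 1.57 in SAHH-het and 0.21 (-0.15 to 0.57) in SAHH-het+betaine. Apoc1, an apolipoprotein next to Apoe, differed by 3.63 and 0.26 (-0.41 to 0.93). For Gstt2 and Apoc1 the SAHH-het+betaine difference turned negative after rescaling to the same sum, where the median of all genes was -0.39.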

How the data were processed

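RNA from vascular tissue was sequenced in 9 libraries, 3 per group. The authors deposited 1 table of FPKM values per gene, and per the submitters' processing notes HISAT2 2.0.5 and mm10 were used and DESeq2 1.20.0 is named. The counts behind the FPKM are not used here, so the design text's count test gave way to limma 3.58.1 (R 4.3.3) on log2(FPKM + 0.5), with all 9 libraries in 1 fit, a variance trend and Benjamini-Hochberg adjustment over 15606 genes. Fold changes on this scale understate the change of low genes. Whole fragments were recovered from the FPKM and GENCODE exon lengths, with the value of 1 fragment first set from 2000 low genes. Of all values above 0 in a library, 97.0 to 97.3% were whole within 0.1. The fragments were used for depth and for voom. The fit was tested on simulated data. Groups came from the labels, and no library was dropped or imputed. Named genes were Ahcy, Apoe, the 10 smallest p and 5 largest differences per direction, 2 members per list by p and 2 by mean, the methionine and betaine lists, and genes called in SAHH-het. The 43 lists and their members were chosen with earlier results of these data known. Replicate numbers were not used to pair the libraries in the main fit.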

Additional observations from a re-analysis of the deposited data

Results flagged for a closer look

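Apoe averaged 199 FPKM in the libraries labelled SAHH-het, a group that the comparison of SAHH-het+betaine with SAHH-WT uses only for its spread. It measured 149, 223 and 225 FPKM there, against 2.91 to 6.11 FPKM in SAHH-WT, which served as controls. All 9 libraries carry the ApoE-null label. The cause was not tested.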

How the results depend on the processing

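Over the alternatives run, 799 of 860 values of list medians moved by less than their limit and 61 moved more. Of 3653 values of named genes, 3537 counted as the same. For genes named only from lists this meant a shift under 1 SD of the libraries, with sign and call not checked. For the other named genes it meant that direction and call were kept. No gene was called in the main fit, so a kept call meant still no call. Genes chosen for groups without overlap could not change direction on leaving out a library. Calls by limma numbered 3 with no filter on low values (Gm23747, Gm24939 and Gm49330, each on 1 fragment per SAHH-WT library), 3 with sample weights, and 0 to 2 on leaving out each library in turn. Genes at an unadjusted p under 0.05 and higher numbered 202 after rescaling to the same sum (TPM), 308 without mitochondrial genes, 1673 with sample weights, and 339 to 1181 on leaving out a library. Those lower numbered 744 with no filter, 829 with TPM, 873 without mitochondrial genes, 1869 with sample weights, and 193 to 742 on leaving out a library. Genes with an interval within 1 log2 unit numbered 19492 with no filter, 3309 with TPM and 6130 to 8315 on leaving out a library, and 1138 at a half-width of 0.5. Genes without overlap numbered 3431 to 5612 on leaving out a library. Among the genes checked for sign, Ahcy, Hsd3b1, Apoc1 and Gstt2 were reversed against the main values in some alternatives. Ahcy was at 0.21 with sample weights and -0.15 to 0.18 on leaving out a library (0.18 without SAHH-WT 1, 0.07 without SAHH-het+betaine 1). Ahcy kept its direction at -0.41 with TPM and -0.28 without mitochondrial genes. Hsd3b1 was at -6.50 to 0.030 on leaving out a library (0.030 without SAHH-WT 1). Apoc1 was at -0.13 with TPM and -0.018 without mitochondrial genes, and Gstt2 at -0.17 and -0.050. The cause was not tested. In deviations from group means, same-numbered libraries correlated at -0.19, 0.04 and 0.06. With so few libraries per group this cannot tell whether the numbers pair them, and the main fit left them unpaired. A replicate block over the 6 libraries called 0 genes and gave 1357 higher. Depth limits genes on a few fragments, such as Mir8094.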
